A study of Arabidopsis thaliana with 66 samples.

Results

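The tau and phi glutathione transferases of Arabidopsis roots, 28 GSTU and 13 GSTF genes, are described here: 41 of the 27313 genes in the count tables. They were chosen by name, as GSTU1 to GSTU28 and GSTF2 to GSTF14, and their reads were summed over the transcript models of each gene. The study grew 4 genotypes, Col-0 as wild type and 3 lines known by the stock numbers N8507, N8508 and N9416, and sequenced root RNA after 14 days. The labels call the lines mutants without naming a mutated gene, so no targeted gene could be checked. Roots came from an untreated control medium (mock), a medium free of phosphate (-P), that medium with nano-hydroxyapatite, a calcium phosphate in particle form (nanoP), and each of these with thorium (mock+Th, -P+Th and nanoP+Th). Thorium is a toxic radioactive metal. Col-0 and N8508 had no mock+Th group among the libraries analysed here, which leaves 22 groups of 3 libraries, 66 in all. Nothing in the labels tells if a group's libraries are separate cultures, and the p-values then reflect library-to-library spread alone, which may be technical.

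Glutathione transferases join the tripeptide glutathione to reactive or foreign molecules, and ABCC transporters then carry many of the conjugates into the vacuole. Tau and phi are the largest classes in plants. Tau genes are known as targets of class II TGA transcription factors and their partner SCL14, which act through TGACG elements when plants meet toxic chemicals or oxidised lipids. Several phi members serve a named pathway: GSTF6 camalexin synthesis, GSTF11 aliphatic glucosinolate synthesis, and GSTF12 the vacuolar deposition of anthocyanins.

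The 250 bases before the annotated start are printed for 6 members with the thorium response described below. They are examples, and the share of risen members with the motif follows in the next paragraph. GSTU2 and GSTU24 also rose in all 4 genotypes but are not printed, and another annotated gene overlaps their windows. The window of GSTU2 holds no TGACG motif and that of GSTU24 holds 1. GSTU11, GSTU25, GSTU1 and GSTU22 rose with thorium on -P in 3 or 4 genotypes and hold a TGACG motif, GSTU19 rose in all 4 without one, and GSTF14 fell in all 4. Sequences are from the RefSeq TAIR10.1 genome, read 5′ to 3′ on the gene's strand, with TGACG or its reverse complement CGTCA in capitals. No other annotated gene overlaps these windows. They lie at GSTU11 chr1:26338819-26339068, minus strand; GSTU25 chr1:5871774-5872023, plus strand; GSTU1 chr2:12632539-12632788, minus strand.
GSTU11: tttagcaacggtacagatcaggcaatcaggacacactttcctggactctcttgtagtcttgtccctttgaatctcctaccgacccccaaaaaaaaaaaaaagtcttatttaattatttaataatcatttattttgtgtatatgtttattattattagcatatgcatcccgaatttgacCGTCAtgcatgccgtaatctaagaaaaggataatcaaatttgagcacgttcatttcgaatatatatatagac
GSTU25: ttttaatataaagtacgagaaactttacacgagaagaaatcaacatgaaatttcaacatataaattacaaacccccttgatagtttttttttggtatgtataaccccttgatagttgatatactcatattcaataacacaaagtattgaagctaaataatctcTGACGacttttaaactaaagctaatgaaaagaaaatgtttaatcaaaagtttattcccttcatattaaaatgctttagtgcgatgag
GSTU1: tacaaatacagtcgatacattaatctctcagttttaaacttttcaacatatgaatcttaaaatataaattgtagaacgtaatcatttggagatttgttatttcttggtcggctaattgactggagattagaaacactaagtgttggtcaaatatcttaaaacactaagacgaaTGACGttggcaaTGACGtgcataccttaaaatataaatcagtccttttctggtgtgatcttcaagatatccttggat
The windows of GSTU22, GSTU19 and GSTF14 lie at chr1:29474004-29474253, minus strand; chr1:29488008-29488257, minus strand; and chr1:18458276-18458525, plus strand.
GSTU22: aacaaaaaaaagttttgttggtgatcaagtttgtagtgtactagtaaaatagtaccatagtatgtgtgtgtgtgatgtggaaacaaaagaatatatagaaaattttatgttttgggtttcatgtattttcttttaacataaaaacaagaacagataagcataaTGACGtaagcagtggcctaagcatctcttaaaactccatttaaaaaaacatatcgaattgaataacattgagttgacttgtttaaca
GSTU19: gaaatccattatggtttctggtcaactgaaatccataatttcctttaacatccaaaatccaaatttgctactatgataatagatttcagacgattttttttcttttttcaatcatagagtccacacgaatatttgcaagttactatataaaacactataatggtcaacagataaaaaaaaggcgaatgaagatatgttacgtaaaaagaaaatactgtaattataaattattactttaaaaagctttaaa
GSTF14: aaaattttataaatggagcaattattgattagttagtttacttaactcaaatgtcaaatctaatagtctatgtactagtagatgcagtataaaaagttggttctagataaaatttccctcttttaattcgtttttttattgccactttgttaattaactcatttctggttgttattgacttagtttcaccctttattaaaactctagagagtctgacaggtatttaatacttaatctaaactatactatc

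A TGACG motif on either strand was found in the 250-base window of 11 of 28 (39.3%) tau members and 3 of 13 (23.1%) phi members, against 5098 of 27443 (18.6%) of all such windows. The members that rose with thorium on -P in 3 or 4 genotypes held it in 9 of 16 (56.2%), and those that were tested in all 4 genotypes and rose in none in 4 of 13 (30.8%). GSTU15, GSTU16, GSTF5 and GSTF12, which lacked the reads for a test in 3 or 4 genotypes, are left out of the latter. Of the risen members with the motif, GSTU1, GSTU3, GSTU5, GSTU6 and GSTU7 are neighbours in the same tandem cluster. The windows of GSTU5, GSTU7 and GSTU24 overlap another annotated gene. The sets also differ in class, as the members that rose are mostly tau, and GSTU3 among them was not tested in N9416. TTGAC, the core of the WRKY box, was found in 12 of 16 (75.0%) and 7 of 13 (53.8%) of the same members, and in 12329 of 27443 (44.9%) of all windows. TTGAC and TGACG can share the bases TGAC. The G-box CACGTG was in 3 of 41 (7.32%) members against 1780 of 27443 (6.49%), and GNATATNC, the element bound by PHR1 in phosphate starvation, in 1 of 41 (2.44%) against 1498 of 27443 (5.46%). The member with GNATATNC was GSTU11. These are matches of letters and no binding was measured.

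Assigned reads ran from 9396787 to 16756417 per library. Col-0 and N8507 libraries carry the numbers 128 to 160 and those of N8508 and N9416 the numbers 193 to 225, so for N8508 and N9416 a difference from Col-0 and a difference between library series cannot be told apart. All 7 root markers, among them SCR, SHR and CASP1, had reads in every group and summed to 931 to 4484 CPM (counts scaled to the library size) per library, while 8 markers of green tissue summed to 7.24 to 64.4 CPM, and RBCS2B had no read in most groups. 3 libraries had a low median effective length: replicate 3 of both N8507 -P+Th and N8507 nanoP, and replicate 1 of Col-0 -P+Th. In roots, fewer cells of a type and less RNA per cell cannot be told apart. The 11 hypoxia markers, which report oxygen shortage, summed to 5908 to 12003 CPM in N8507 mock and 9256 to 12896 CPM in N8508 nanoP+Th, against 1186 to 1832 CPM in Col-0 -P. Their part in the results below was not tested.

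Levels between genes are given as deposited TPM, which is per length, and the values of a gene between libraries as CPM scaled by TMM. The phi class was the more abundant class in all 66 libraries, with summed TPM 2.16 to 5.99 times that of the tau class (median 3.84). GSTF10 (AT2G30870, mean of the 22 group means 1708 TPM) and GSTF9 (AT2G30860, 1372 TPM) supplied 41.4 to 72.9% of the phi sum. Next in the class came GSTF8 (AT2G47730, 726 TPM), an early stress-response gene, GSTF14 (AT1G49860, 626 TPM) and GSTF2 (AT4G02520, 499.7 TPM), which binds camalexin and other indoles. In the tau class GSTU13 (AT1G27130, 401 TPM), known from the indole glucosinolate pathway, GSTU19 (AT1G78380, 189 TPM), an abundant enzyme active on xenobiotics, and GSTU27 (AT3G43800, 119.9 TPM) supplied 24.9 to 71.8% of the sum. At the other end, GSTF5 (AT1G02940) had 8 reads and GSTF12 (AT5G17220) 101 reads over all 66 libraries, and GSTU15 (AT1G59670) had 124. GSTU13 ran from 272 to 794 TPM over the 66 libraries, whereas GSTU4 (AT2G29460) ran from 0.13 to 181 TPM and GSTU24 (AT1G17170), which acts on the explosive TNT, from 4.16 to 679.6 TPM.

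**Figure D1:**
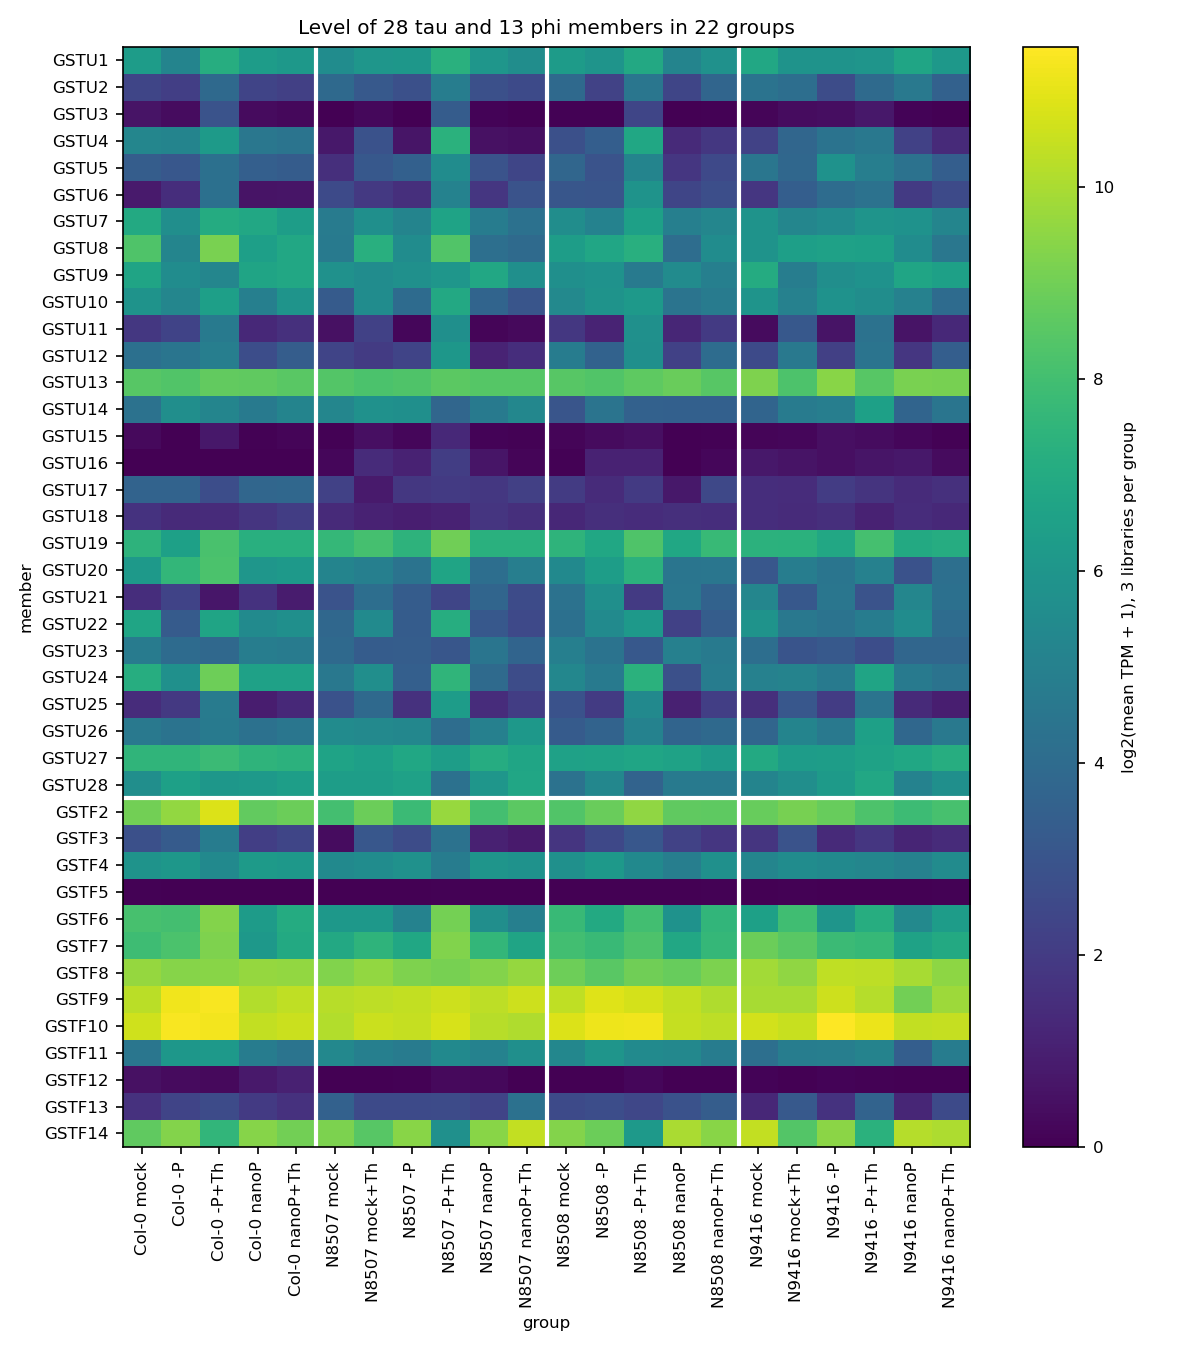
Mean deposited TPM of each member in each group on a log2(TPM + 1) scale, with 28 tau members above the horizontal line and 13 phi members below it, and genotypes parted by vertical lines. Either GSTF10 or GSTF9 has the highest mean in each group, while GSTF5, GSTF12, GSTU15 and GSTU16 are near 0 in most groups.

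Summed over a class, the tau level was highest in the -P+Th groups of Col-0, N8507 and N8508. In Col-0 the tau members summed to 1909.9, 1799.5 and 2007 TPM on mock, 1362, 1257 and 1317 TPM on -P and 3985, 2775 and 2675 TPM on -P+Th. With nanoP the sums were 1500.3, 1599.8 and 1529 TPM without and 1586, 1509 and 1598 TPM with thorium. In N8508 they went from 1145, 1145 and 1266 TPM on -P to 2096, 2128 and 2101 TPM on -P+Th, without overlap. N9416 overlapped, with 1655, 1502 and 1395 TPM on -P and 1497, 1712 and 1730.5 TPM on -P+Th. The phi sum of Col-0 was higher on -P, at 8154, 7396 and 7803 TPM, than on mock, at 5788, 4729 and 4889 TPM.

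**Figure D2:**
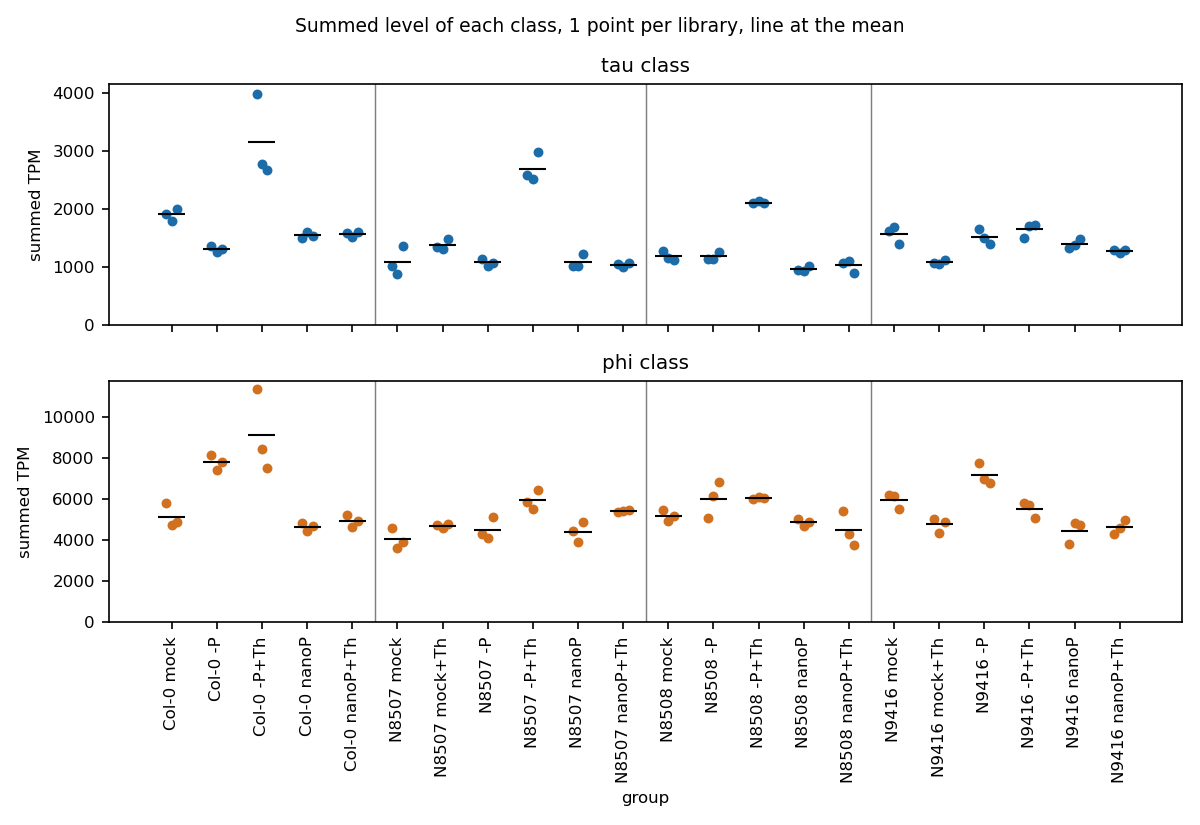
Summed deposited TPM of the 28 tau members (top) and 13 phi members (bottom) in each library, with a line at the mean of the 3 libraries of a group. The highest tau library, Col-0 -P+Th replicate 1 at 3985 TPM, was one of the 3 libraries of low effective length.

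Most members lie beside a relative: 29 fall into 9 tandem clusters and 12 stand alone, on 5 chromosomes. The largest clusters are GSTU1 (AT2G29490) to GSTU7 (AT2G29420) on chromosome 2 and GSTU19 to GSTU23 (AT1G78320) on chromosome 1. Coding sequences of tau members in the same cluster were 57.7 to 85.5% identical (median 74.7%), against 46.6 to 76.8% (median 55.6%) between clusters. GSTF2 and GSTF3 (AT2G02930) were 94.5% identical, GSTF6 (AT1G02930) and GSTF7 (AT1G02920) 94.3% and GSTU1 and GSTU2 (AT2G29480) 85.5%, so that reads may have been split between the members of these pairs and their single values are uncertain.

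The comparison of -P+Th with -P asked how thorium acted on roots without phosphate. Tau genes rose in Col-0 by up to 4.68 on the log2 scale, all 7 members of the GSTU1 to GSTU7 cluster among them, and GSTF14 fell. Of the members, 16 of 26 tested tau members rose and 1 fell, and 3 of 11 tested phi members rose and 1 fell, where 25.4%, 11.9% higher and 13.5% lower, of all tested genes passed. The median log2 fold change was 1.36 over the tested tau members and 0.42 over the phi members, against -0.02 over all genes. A member is called changed at an adjusted p under 0.05 (edgeR's quasi-likelihood test, Benjamini-Hochberg adjustment over all genes), and a number in brackets behind a gene is its log2 fold change, followed by the SE. With 1 library left out 15 to 22 members passed. Without -P+Th replicate 1 the total stayed at 21, but 15 rose and 6 fell in place of 19 and 2.

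GSTU8 (AT3G09270) had 27.2, 23.3 and 29.5 CPM on -P and 997, 320.1 and 305 CPM on -P+Th (4.35, SE 0.43, adjusted p = 9.93e-06). GSTU24 went from 49.9, 33.9 and 33.2 CPM to 759, 312 and 288 CPM (3.54, SE 0.34, adjusted p = 7.81e-06), and its neighbour GSTU25 (AT1G17180), which also acts on TNT, from 2.88, 2.51 and 0.218 CPM to 30.4, 21.1 and 10.6 CPM (3.45, SE 0.62, adjusted p = 0.00133). GSTU22 (AT1G78340) went from 6.07, 5.73 and 7.04 CPM to 161, 54.8 and 55.5 CPM (3.86, SE 0.37, adjusted p = 7.71e-06). All thorium libraries lay above all -P libraries for these 4 genes, and replicate 1, of low effective length, was the highest for GSTU8, GSTU24 and GSTU22. The 4 genes were named for their large called changes, so this separation is no added evidence. The share of all genes without overlap was not counted. GSTU3 (AT2G29470), hardly expressed on -P, went from 0.128, 0 and 0.436 CPM to 5.98, 4.96 and 3.61 CPM (4.68, SE 0.94, adjusted p = 0.00288). GSTU19 rose from 47.8, 58.6 and 74.7 CPM to 322, 162 and 186 CPM (1.89, SE 0.23, adjusted p = 6.41e-05). GSTU20 (AT1G78370), linked to jasmonate signalling and to aliphatic glucosinolates, rose less (0.95, SE 0.29, adjusted p = 0.0282). GSTU20 was not called without -P replicates 1, 2 or 3 or -P+Th replicate 1 (adjusted p from 0.0665 to 0.138) and GSTF3 was not called without -P replicate 2 (adjusted p = 0.0511).

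Of the phi genes, GSTF2 had 475, 430.0 and 754 CPM on -P and 2342, 1179 and 1218 CPM on -P+Th (1.52, SE 0.28, adjusted p = 0.00134), and its near copy GSTF3 rose as well (1.86, SE 0.48, adjusted p = 0.012). GSTF14 fell, from 467, 429 and 432 CPM to 214, 123 and 115 CPM (-1.55, SE 0.21, adjusted p = 0.000143). GSTU21 (AT1G78360) fell too, at low level (-2.34, SE 0.57, adjusted p = 0.00926), within a cluster whose GSTU19, GSTU20 and GSTU22 rose. GSTF6 (1.61, SE 0.59, adjusted p = 0.0608) and GSTF8 (0.27, SE 0.19, adjusted p = 0.304) did not pass, and GSTF12 had too few reads to be tested.

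The same comparison called 16 tau members higher and 2 lower of 27 tested in N8507 and 4 phi members higher and 2 lower of 11 (29.8%, 15.9% higher and 13.9% lower, of all genes). In N8508 it called 15 tau members higher and 5 lower of 26, and 2 phi higher and 4 lower of 11 (47.2%, 23.2% higher and 23.9% lower). In N9416 it called 8 tau members higher and 3 lower of 25, and 2 phi higher and 4 lower of 11 (40.0%, 20.1% higher and 19.9% lower). The share of tau members called there in either direction was near that of all genes. The tau median was 1.97 in N8507, 0.91 in N8508 and 0.29 in N9416. In all 4 genotypes GSTU2, GSTU11 (AT1G69930), GSTU19, GSTU24 and GSTU25 rose and GSTF14 fell. In 3 of them GSTU1, GSTU3, GSTU4, GSTU5 (AT2G29450), GSTU6 (AT2G29440), GSTU7, GSTU12 (AT1G69920), GSTU20, GSTU22, GSTF2 and GSTF6 rose and GSTU21 fell, a count over 4 separate sets of libraries. The share of all genes called in 3 or 4 genotypes was not counted, so these lists are descriptive. In Col-0 GSTU4 passed in 3 of 6 fits that left out 1 library, and the other members of its cluster in 6 of 6.

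The steepest rises were in N8507. GSTU4 stood at 0.61, 0.199 and 0.206 CPM on -P and 84.0, 95.0 and 179 CPM on -P+Th (8.45, SE 0.58, adjusted p = 3.86e-08), and GSTU11 at 0.136, 0.199 and 0 CPM and 38.4, 23.3 and 91.9 CPM (8.75, SE 0.80, adjusted p = 6.89e-07). GSTU3 had no read on -P and 4.6, 3.5 and 14.0 CPM on -P+Th, at least 6.79 higher on the log2 scale with a floor of 3 reads over the group. On -P none of these 3 genes exceeded 0.61 CPM in any library of N8507. GSTU3 had 0 reads in 30 of the 66 libraries. A gene so rarely read can pass the filter on low counts through the -P+Th group itself. Its calls here, in Col-0 and in N8508, also where its cluster is counted, are therefore descriptive. GSTU4 and GSTU11 in N8507, and GSTU11 in N9416, also had hardly any reads on -P. They can have passed the filter in the same way, through groups with thorium. Their thorium calls in these lines are descriptive as well, also where risen members are counted. GSTU25 (5.60, SE 0.85, adjusted p = 0.000105) and GSTU6 (4.52, SE 0.61, adjusted p = 3.27e-05) followed, and among phi genes GSTF6 rose from 17.4, 20.6 and 18.3 CPM to 263, 249 and 674 CPM (4.42, SE 0.49, adjusted p = 4.72e-06) and its near copy GSTF7 by 2.81 (SE 0.39). GSTF14 went from 394, 357 and 640.1 CPM to 36.4, 39.4 and 46.9 CPM (-3.47, SE 0.25, adjusted p = 4.8e-08). GSTF4 (AT1G02950) was not called without -P replicates 1 or 2 or -P+Th replicate 2 (adjusted p from 0.0567 to 0.0606).

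In N8508 GSTU11 (5.33, SE 0.44, adjusted p = 1.62e-07), GSTU25 (3.67, SE 0.33) and GSTU4 (3.46, SE 0.35) rose. GSTU3 was called higher too, with 0, 0 and 0.086 CPM on -P and 2.12, 3.15 and 2.46 CPM on -P+Th. GSTU21 had 37.4, 23.6 and 36.0 CPM on -P and 1.53, 1.71 and 1.67 CPM on -P+Th (-4.26, SE 0.21, adjusted p = 9.23e-10), while in the same cluster GSTU19 (1.35, SE 0.16) and GSTU20 (0.91, SE 0.23) rose and GSTU23 fell (-1.42, SE 0.19). GSTU22 was not called without -P replicates 2 or 3 or -P+Th replicates 1, 2 or 3 (adjusted p from 0.0581 to 0.142). In N9416 GSTU11 went from 0.327, 0.284 and 0.604 CPM to 17.9, 8.73 and 16.6 CPM (5.16, SE 0.55, adjusted p = 2e-06), and GSTU25 (2.70, SE 0.31), GSTU12 (2.56, SE 0.37), GSTU24 (2.02, SE 0.17) and GSTU26 (AT1G17190, 1.91, SE 0.27) rose. The neighbours GSTU13 and GSTU14 (AT1G27140) moved apart there, GSTU13 down from 683, 589.8 and 464 CPM to 264, 316 and 269.9 CPM (-0.98, SE 0.13, adjusted p = 1.46e-05) and GSTU14 up (1.65, SE 0.28, adjusted p = 0.000196). GSTF13 (AT3G62760) rose in N9416 (2.37, SE 0.42, adjusted p = 0.00024), from 2.45, 1.14 and 1.81 CPM to 14.5, 8.4 and 4.51 CPM.

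GSTF14 fell in N8508 from 345, 286 and 421 CPM to 39.1, 58.1 and 50.3 CPM (-2.79, SE 0.24, adjusted p = 2.99e-07) and in N9416 from 607, 463 and 514 CPM to 135, 109 and 102 CPM (-2.14, SE 0.20, adjusted p = 4.31e-07). It was thus the phi member with the same call in the thorium comparison of all 4 genotypes. Where the thorium effect of a line was set against that of Col-0, GSTF14 fell further in N8507 (-1.96, SE 0.32, adjusted p = 7.56e-06) and N8508 (-1.28, SE 0.32, adjusted p = 0.00343). The thorium effect on GSTU8 was lower in N8508 (-4.04, SE 0.53, adjusted p = 1.41e-07) and N9416 (-4.44, SE 0.53, adjusted p = 3.28e-08) than in Col-0, and GSTU4 rose more in N8507 (7.10, SE 0.73, adjusted p = 2.62e-10). The Col-0 -P libraries, low for GSTU8, enter this test and that of the response to -P below with opposite sign. The differences of GSTU8 in both tests are therefore not separate results. In all, 20.4%, 9.89% higher and 10.6% lower, of genes passed this test in N8507, 14.8%, 4.78% higher and 10% lower, in N8508 and 18.8%, 7.68% higher and 11.1% lower, in N9416, and 13, 9 and 15 of 39 tested members. Without Col-0 -P+Th replicate 1 the N8508 count was 4.

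**Figure D3:**
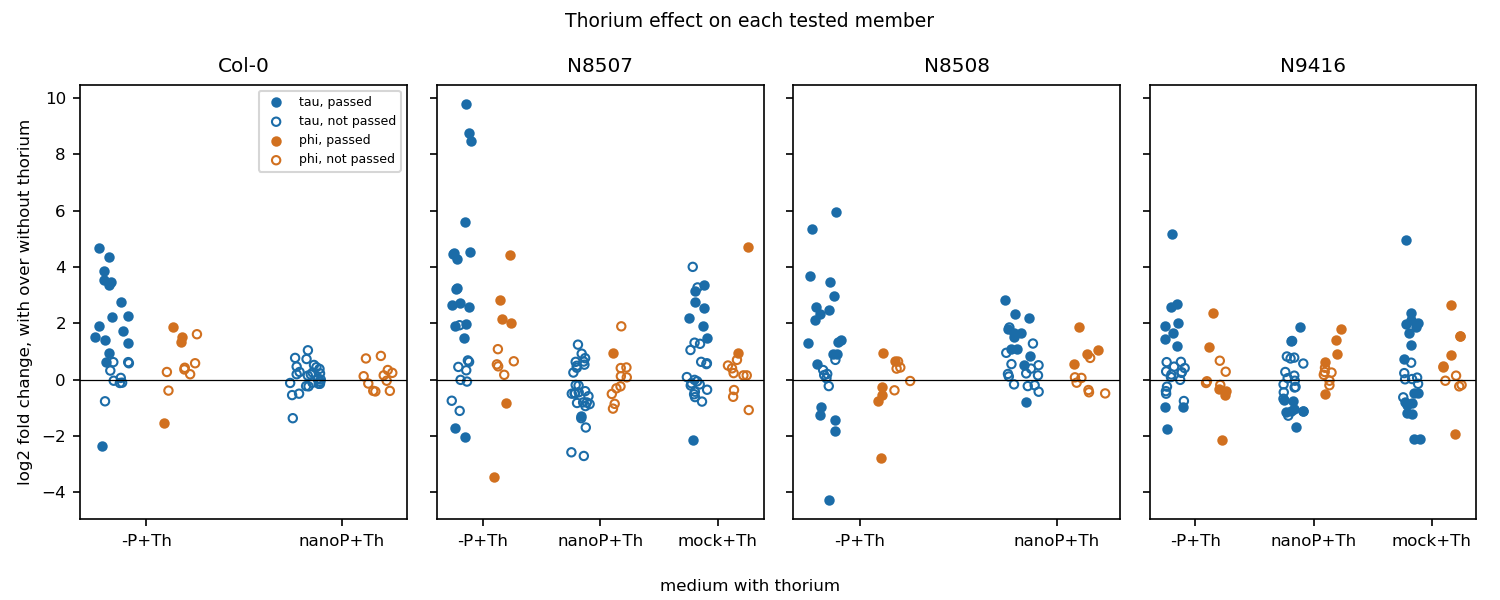
Log2 fold change of each tested member with over without thorium, on -P, with nanoP and, for N8507 and N9416, on mock, with tau in blue and phi in orange; filled points had an adjusted p under 0.05. On -P, 16 tau points lie filled above 0 in Col-0 and in N8507, whereas no member passed with nanoP in Col-0.

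Genes around the transferases were read from lists chosen with earlier results of these data known. Of the TGA and SCL14 detoxification branch, 8 of 12 tested genes rose with thorium on -P in Col-0 and 1 fell. Of all genes 25.4%, 11.9% higher and 13.5% lower, passed there. The glucosyltransferase gene UGT73B4 (4.05, SE 0.35) and the cytochrome P450 gene CYP81D11 (7.83, SE 1.59) were among the risen. In N8507 9 of 13 rose (29.8%, 15.9% higher and 13.9% lower, of all genes passed). In N8508 9 rose and 1 fell of 13 (47.2%, 23.2% higher and 23.9% lower), and in N9416 6 rose and 2 fell of 13 (40.0%, 20.1% higher and 19.9% lower). The same shares of all genes stand beside the other lists. Of 9 genes for glutathione synthesis, recycling and turnover, 8 were tested, and GGCT2;1, which degrades glutathione, moved most, by 3.37 (SE 0.84) in Col-0, 4.46 (SE 0.65) in N8507 and 5.96 (SE 0.24) in N8508, but fell in N9416 by 1.29 on the log2 scale. The list counted 1 risen and 1 fallen in Col-0, 3 and 0 in N8507, 5 and 0 in N8508, and 2 and 4 in N9416. The vacuolar ABCC pumps for conjugates had 0 risen and 1 fallen of 3 in Col-0, the one being ABCC1 (-0.90, SE 0.23). Of 12 transferases of other classes 4 rose and 0 fell in Col-0, led by the lambda class gene GSTL1 (2.40, SE 0.34). The ABCC and other-class lists are given for Col-0 alone. Of the camalexin list 1 of 4 rose in Col-0 and 3 in N8507, where CYP71A13 (10.27, SE 1.08) and GSTF6 rose. GSTF6 rose in N8508 and N9416 as well, for which the camalexin list is not given here, and a link between them was not tested. The anthocyanin list had 1 of 6 genes tested in Col-0 and N8508, and GSTF12 itself was not tested in any genotype. Summed hypoxia markers went from 1186 to 1832 CPM on -P to 2891 to 4312 CPM on -P+Th in Col-0 and from 1436 to 2239.6 to 5686 to 6463 CPM in N9416. In N8507 they went from 1798 to 2439.9 to 874 to 957 CPM and in N8508 from 2078 to 2325 to 1230.0 to 1872 CPM. Their part in the thorium calls was not tested.

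The comparison of nanoP+Th with nanoP was fitted in each genotype with its own spread, and genotypes were not compared in it. In Col-0 edgeR called 0 of 37 tested members between nanoP+Th and nanoP (0.105%, 0.0803% higher and 0.0251% lower, of all genes), 2 members had an unadjusted p under 0.05, and the count was 1 with DESeq2, 1 with 1 fit of all 66 libraries and 1 without the 3 libraries of low effective length. GSTU24, which had risen 3.54 on -P, had 53.3, 64.6 and 59.5 CPM without thorium and 54.7, 47.9 and 74.9 CPM with it, and GSTU8 42.1, 69.6 and 57.2 CPM and 66.8, 55.3 and 98.2 CPM, both overlapping. The thorium effect with nanoP minus that on -P passed for 9 members in Col-0 (7.72%, 4.45% higher and 3.27% lower, of all genes), lower for 7 tau members and GSTF2 and higher for GSTF14, and the count was 14 with DESeq2 (1 higher, 13 lower). GSTU8 (-3.96, SE 0.55, adjusted p = 0.000473), GSTU22 (-3.64, SE 0.48, adjusted p = 0.000336) and GSTU24 (-3.54, SE 0.45, adjusted p = 0.000245) had the largest differences.

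In N8507, 2 of 38 members passed with nanoP, a share near that of all genes (4.65%, 1.96% higher and 2.69% lower, passed). The count was 5 with DESeq2 (1 higher, 4 lower), 9 with 1 fit of all 66 libraries (2 higher, 7 lower) and 9 without the 3 libraries of low effective length (8 higher, 1 lower). Most calls were thus lower in the fit of all libraries and higher without the libraries of low effective length. The direction of the members with nanoP in N8507 therefore depends on the setting, and the members behind these counts are not given here. GSTF14 rose from 463, 522 and 379.8 CPM to 1040.4, 774 and 794 CPM (0.96, SE 0.22, adjusted p = 0.0193), the opposite of its fall on -P, and GSTU9 (AT5G62480) fell (-1.28, SE 0.30, adjusted p = 0.0202). GSTU9 was not called without nanoP replicate 3 or nanoP+Th replicates 1, 2 or 3 (adjusted p from 0.0689 to 0.097) and GSTF14 was not called without nanoP replicate 3 or nanoP+Th replicate 1 (adjusted p from 0.0772 to 0.118). The difference between both thorium effects passed for 24 of 38 members (24.0%, 10.9% higher and 13.1% lower), for GSTU4 by -8.95, SE 1.23, adjusted p = 6.9e-05. In N8508, 11 tau members rose and 1 fell of 26, and 4 phi members rose of 11 (16.4%, 9.22% higher and 7.18% lower, of all genes), and the count of 16 was 10 with 1 fit of all 66 libraries (10 higher, 0 lower). GSTU24 went from 5.6, 3.24 and 2.69 CPM to 26.9, 19.3 and 10.7 CPM (2.32, SE 0.31, adjusted p = 0.000201), GSTU17 (AT1G10370) from 0.374, 0.317 and 0.616 CPM to 5.33, 2.26 and 1.77 CPM (2.84, SE 0.61, adjusted p = 0.00592) and GSTF6 from 45.1, 17.2 and 25.7 CPM to 142, 92.9 and 78.4 CPM (1.85, SE 0.32, adjusted p = 0.00143). All nanoP+Th libraries lay above all nanoP libraries for these 3 genes, which were named with their changes known, so the separation is no added evidence. The hypoxia markers of N8508 nanoP summed to 3246 to 5383 CPM without thorium and 9256 to 12896 CPM with it.

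With nanoP in N9416, 8 tau members fell and 2 rose of 25, and 4 phi members rose and 1 fell of 11 (21.7%, 10.5% higher and 11.1% lower, of all genes). The count of 15 was 7 with 1 fit of all 66 libraries (3 higher, 4 lower). The hypoxia markers of N9416 summed to 1185 to 1444 CPM with nanoP and 3939 to 6693 CPM with nanoP+Th, and their part was not tested. GSTU22 fell from 30.2, 26.0 and 34.6 CPM to 12, 8.58 and 7.76 CPM (-1.68, SE 0.22, adjusted p = 5.1e-05), GSTU21 fell (-1.13, SE 0.20, adjusted p = 0.000723) and GSTU20, in the same cluster, rose (1.37, SE 0.28, adjusted p = 0.00224). GSTF11 (AT3G03190) rose with it, from 7.66, 6.62 and 4.44 CPM to 23.1, 13.8 and 12.8 CPM (1.42, SE 0.27, adjusted p = 0.00142), and so did 5 of 5 tested aliphatic glucosinolate genes, MAM1 (2.32, SE 0.29) most. GSTF11 and GSTU20 are the transferases of that pathway. GSTU2 was not called without nanoP replicate 1 or nanoP+Th replicates 1 or 2 (adjusted p from 0.0626 to 0.0983) and GSTF13 was not called without nanoP replicate 3 or nanoP+Th replicate 3 (adjusted p from 0.0509 to 0.0717).

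On the control medium thorium was tested in N8507 and N9416. In N8507, 7 tau members rose and 1 fell of 27 and 2 phi members rose (11.8%, 8.22% higher and 3.59% lower, of all genes). GSTU8 went from 8.78, 10.9 and 30.6 CPM on mock to 104, 97.0 and 135 CPM on mock+Th (2.75, SE 0.51, adjusted p = 0.0015), GSTU10 (AT1G74590) from 6.92, 3.69 and 9.29 CPM to 38.3, 34.5 and 41.9 CPM (2.54, SE 0.27, adjusted p = 8.56e-06) and GSTU4 from 0.192, 0.132 and 0.844 CPM to 3.13, 3.27 and 5.58 CPM (3.37, SE 0.55, adjusted p = 0.000568). Mock replicate 3 was the highest mock library for all 3 genes. Without mock replicate 1 the count fell to 6. The hypoxia markers of N8507 mock, 5908 to 12003 CPM, were above those of mock+Th, 1839 to 5243 CPM. In N9416, 9 tau members rose and 9 fell of 25 and 6 phi members rose and 1 fell (51.7%, 27.2% higher and 24.5% lower, of all genes). There GSTU11 rose from 0.172, 0.0968 and 0.258 CPM to 3.51, 6.21 and 7.14 CPM (4.94, SE 0.66, adjusted p = 1.06e-05), and GSTU12 (2.35, SE 0.36), GSTU25 (2.11, SE 0.35) and GSTF13 (2.63, SE 0.46) rose. GSTU9 fell from 89.2, 90 and 91.6 CPM to 25.4, 14.9 and 21.4 CPM (-2.10, SE 0.17, adjusted p = 4.83e-08), and GSTF14 from 906, 986 and 705 CPM to 261, 180.3 and 219.6 CPM (-1.94, SE 0.20, adjusted p = 4.78e-07). N9416 hypoxia markers summed to 1019.5 to 2003 CPM on mock and 6271 to 9526 CPM on mock+Th; their part was not tested.

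**Figure D4:**
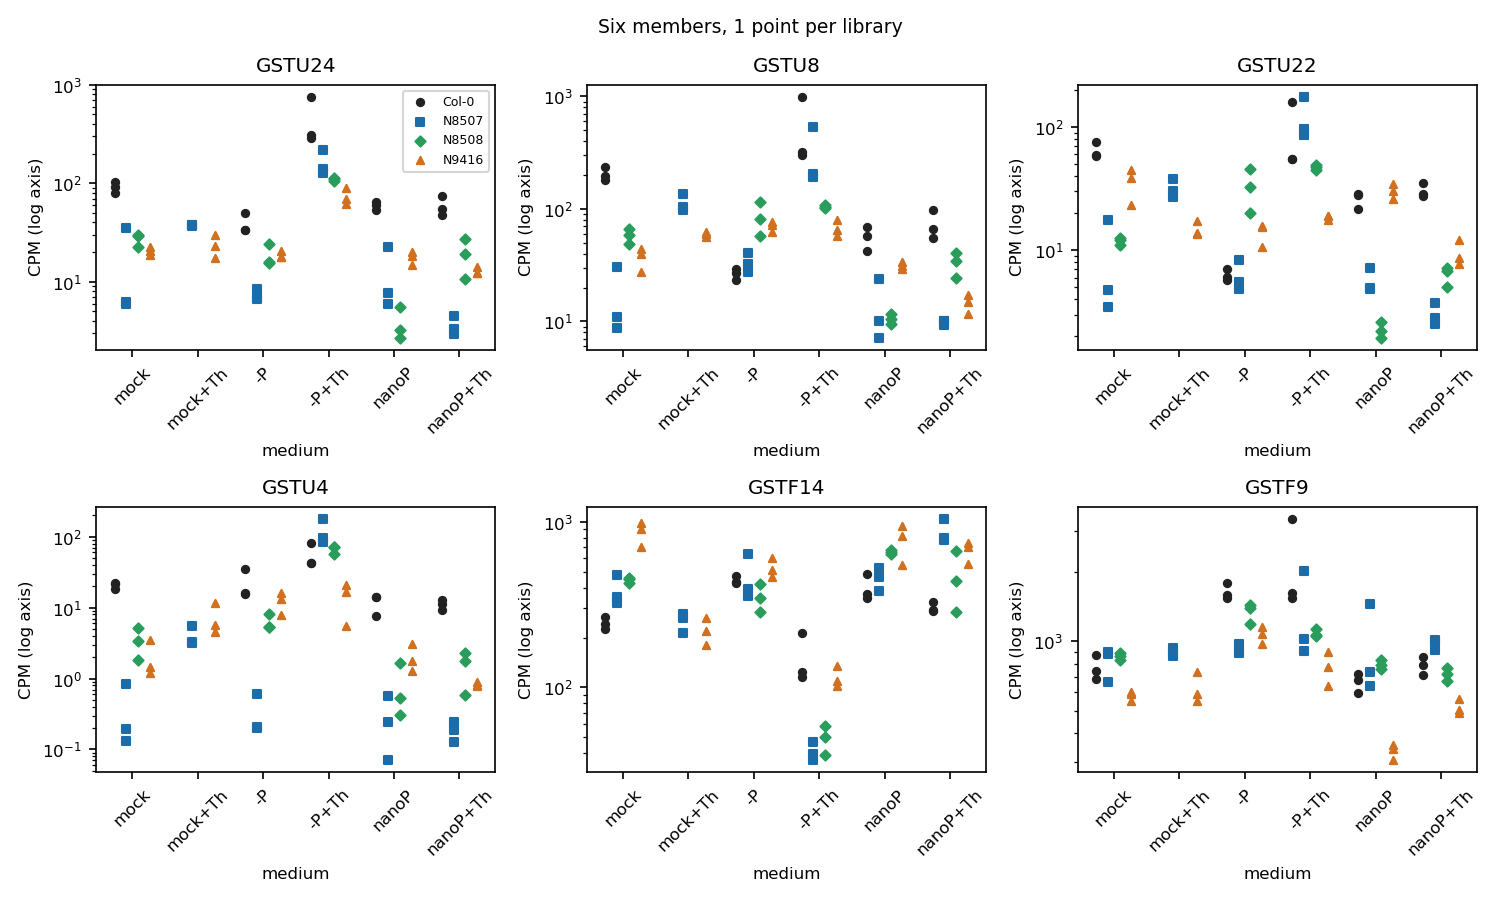
CPM of 6 members in every library on a log axis, by medium and genotype. GSTU24, GSTU8 and GSTU4 stood highest with -P+Th in Col-0 and N8507, GSTF14 was lowest with -P+Th in all 4 genotypes, and GSTF9 varied over a narrower range.

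The comparison of -P with mock asked what the absence of phosphate did, and its -P libraries are also the base of the thorium comparison above and the nanoP comparison below. In Col-0, 2 of 26 tested tau members rose and 6 fell, and 4 of 11 tested phi members rose and 0 fell, where 6.61%, 3.73% higher and 2.88% lower, of all tested genes passed. GSTU22 dropped from 59.5, 58.1 and 76.3 CPM to 6.07, 5.73 and 7.04 CPM (-3.36, SE 0.36, adjusted p = 2.6e-05), and GSTU8 from 181, 198 and 238 CPM to 27.2, 23.3 and 29.5 CPM (-2.95, SE 0.40, adjusted p = 0.000242). In the cluster of GSTU22, GSTU20 rose from 44.0, 41.3 and 50.1 CPM to 141, 134 and 129 CPM (1.58, SE 0.30, adjusted p = 0.00367). GSTF11 rose from 14.0, 11.2 and 14.4 CPM to 40.7, 47.7 and 49.7 CPM (1.80, SE 0.34, adjusted p = 0.00356). For none of these 4 genes did the libraries of the groups overlap, but they were named with their changes known, so this is no added evidence. All 6 aliphatic glucosinolate genes rose with GSTF11 and GSTU20 on -P in Col-0, MAM1 (2.45, SE 0.26) and CYP79F1 (3.19, SE 0.81) among them.

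The phi pair GSTF9 and GSTF10 rose in Col-0, GSTF9 from 874, 684 and 740.2 CPM to 1592, 1539 and 1788 CPM (1.1, SE 0.24, adjusted p = 0.0117) and GSTF10 by 0.91, SE 0.24, adjusted p = 0.0326. GSTU19 (-0.70, SE 0.23, adjusted p = 0.0957), GSTF2 (0.76, SE 0.27, adjusted p = 0.137), GSTF6 (0.11, SE 0.58, adjusted p = 0.974), GSTF8 (-0.11, SE 0.19, adjusted p = 0.895) and GSTU25 (0.86, SE 0.66, adjusted p = 0.636) did not pass. Several calls of Col-0 were lost with 1 library left out. GSTF9 was not called without mock replicates 2 or 3 (adjusted p from 0.0597 to 0.0669) and GSTF10 was not called without any 1 of the 6 libraries (adjusted p from 0.0572 to 0.128). GSTU14 was not called without -P replicates 1 or 2 or mock replicates 1, 2 or 3 (adjusted p from 0.0914 to 0.147) and GSTU24 was not called without -P replicates 2 or 3 or mock replicates 1, 2 or 3 (adjusted p from 0.0523 to 0.131). The count was 12, and 5 to 10 with 1 library left out: 6 without -P replicate 2, mock replicate 1 or mock replicate 2 and 5 without mock replicate 3. The 7 root markers summed to 2884 to 3566 CPM on mock and 1459 to 1954 CPM on -P in Col-0, and their part was not tested.

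On -P the called members of the 3 lines were counted in the same way. In N8507, 2 of 38 members passed (3.9%, 3.13% higher and 0.776% lower, of all genes), GSTU5, from 0.513, 1.12 and 1.69 CPM to 6.24, 6.18 and 6.81 CPM (2.52, SE 0.51, adjusted p = 0.00735), and GSTF3 (4.11, SE 0.87, adjusted p = 0.0104). GSTU5 was not called without mock replicate 1 (adjusted p = 0.052) and GSTF3 was not called without -P replicate 3 or mock replicate 1 (adjusted p from 0.0509 to 0.0665). The N8507 count was 5 without the 3 libraries of low effective length (3 higher, 2 lower). In N8508, 5 of 26 tested tau members rose and 3 fell, and 6 of 11 tested phi members rose and 0 fell (9.59%, 5.73% higher and 3.86% lower), and the count was 5 with 1 fit of all 66 libraries (4 higher, 1 lower). There GSTU22 rose, from 11.1, 12.2 and 12.6 CPM to 46.0, 20.1 and 32.5 CPM (1.45, SE 0.22, adjusted p = 0.00076), where it had fallen in Col-0. GSTU21 (1.55, SE 0.17), GSTU14 (1.55, SE 0.27) and GSTF9 (0.63, SE 0.10) rose and GSTU2 fell (-1.83, SE 0.20). GSTU12 was not called without -P replicates 1 or 3 or mock replicates 1, 2 or 3 (adjusted p from 0.0578 to 0.131) and GSTU19 was not called without -P replicates 1, 2 or 3 or mock replicates 1 or 2 (adjusted p from 0.0621 to 0.221). GSTF3 was not called without -P replicates 2 or 3 or mock replicates 1 or 2 (adjusted p from 0.0604 to 0.14) and GSTF11 was not called without -P replicate 3 or mock replicates 1 or 2 (adjusted p from 0.0722 to 0.125). In N9416, 10 of 25 tested tau members rose and 7 fell, and 4 of 11 tested phi members rose and 2 fell (38.1%, 20.8% higher and 17.3% lower). Root markers in N9416 summed to 1344 to 1625 CPM on mock, 3877 to 4484 CPM on -P and 930.5 to 1173 CPM with nanoP, and in N8508 to 2175 to 3326, 3478 to 4338 and 2138 to 2705 CPM in the same order. Their part in these calls was not tested. GSTU6 (2.80, SE 0.41, adjusted p = 5.35e-05), GSTU4 (2.56, SE 0.51) and GSTU5 (1.63, SE 0.28) rose in a cluster where GSTU1 (-0.77, SE 0.16) and GSTU2 (-1.63, SE 0.35) fell. GSTF10 (0.99, SE 0.12), GSTF9 (0.86, SE 0.13) and GSTU20 (1.65, SE 0.28) rose as in Col-0.

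GSTU14, GSTU20, GSTF9, GSTF10 and GSTF11 rose on -P in 3 genotypes, and no member rose or fell in all 4. How many of all genes rose in 3 genotypes was not counted. The count of the 14 called in N8508 was 8 without -P replicate 3 or mock replicate 1 and 7 without mock replicate 2. In the tests of the difference from the Col-0 response, GSTU22 was higher in N8507 (2.92, SE 0.51, adjusted p = 8.21e-05), N8508 (4.81, SE 0.51, adjusted p = 4.94e-10) and N9416 (2.01, SE 0.50, adjusted p = 0.00609), and GSTU8 likewise (3.96, SE 0.53; 3.49, SE 0.52; 3.85, SE 0.53 in the same order). These 3 tests share the Col-0 libraries. The -P libraries also enter the tests of the thorium effect against Col-0, with opposite sign, so the differences of GSTU22 and GSTU8 there are not separate results. Of all genes 5.54%, 3.47% higher and 2.06% lower,, 6.45%, 3.37% higher and 3.08% lower, and 7.15%, 3.95% higher and 3.2% lower, passed, and of 39 members 9, 5 and 6. The N8507 count was 14 without the 3 libraries of low effective length (8 higher, 6 lower), and the N9416 count 11 without the 3 libraries of low effective length (7 higher, 4 lower). The N8508 count was 3 without Col-0 -P replicate 3, Col-0 mock replicate 3, N8508 -P replicate 3 or N8508 mock replicate 2.

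Adding nanoP to the phosphate-free medium went with the opposite sign for several of these members in Col-0. The same -P libraries enter both comparisons with opposite sign, and the members were named for their calls on -P. A deviation of those libraries alone would give opposite signs, so this is no test of a reversal by nanoP. Against -P, 4 of 26 tested tau members rose and 1 fell, and 0 of 11 tested phi members rose and 5 fell (6.1%, 2.6% higher and 3.49% lower, of all genes). GSTU22 rose to 21.8, 28.3 and 28.5 CPM (2.06, SE 0.35, adjusted p = 0.00156) and GSTU20 fell to 57.9, 23.5 and 37.3 CPM (-1.77, SE 0.30, adjusted p = 0.00153). GSTF11 (-1.5, SE 0.34, adjusted p = 0.0126), GSTF9 (-1.30, SE 0.25, adjusted p = 0.00382) and GSTF7 (-2.31, SE 0.46, adjusted p = 0.00545) fell, with 5 of 6 aliphatic glucosinolate genes. GSTF7 had 229, 164 and 117 CPM on -P and 39.9, 25.8 and 36.8 CPM with nanoP, and its near copy GSTF6 did not pass (-1.98, SE 0.61, adjusted p = 0.0756). The count was 6 in place of 10 without nanoP replicate 3. GSTU7 was not called without -P replicates 1 or 2 or nanoP replicates 2 or 3 (adjusted p from 0.0577 to 0.1) and GSTU1 was not called without -P replicates 1 or 2 or nanoP replicates 1, 2 or 3 (adjusted p from 0.0676 to 0.122). GSTU9 was not called without -P replicates 1, 2 or 3 or nanoP replicate 3 (adjusted p from 0.0537 to 0.0776) and GSTF2 was not called without -P replicate 3 or nanoP replicates 1, 2 or 3 (adjusted p from 0.0591 to 0.0922). Against mock 1 of 37 members passed in Col-0 (0.562%, 0.271% higher and 0.291% lower), GSTU8, with 42.1, 69.6 and 57.2 CPM (-1.87, SE 0.39, adjusted p = 0.0437). GSTU8 was not called without any 1 of the 6 libraries (adjusted p from 0.089 to 0.204), and the count was 4 with DESeq2 (0 higher, 4 lower), 5 with 1 fit of all 66 libraries (0 higher, 5 lower) and 5 without the 3 libraries of low effective length (1 higher, 4 lower).

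In N8508, against -P, 0 of 26 tested tau members rose and 15 fell, and 1 of 11 tested phi members rose and 7 fell (38.0%, 17.7% higher and 20.3% lower, of all genes), and against mock 19 of 37 fell and 0 rose by edgeR (28.9%, 13.5% higher and 15.4% lower). GSTU22 had 1.94, 2.22 and 2.62 CPM with nanoP (-3.86, SE 0.26, adjusted p = 5.93e-08), GSTU8 9.56, 11.6 and 10.5 CPM (-3.01, SE 0.24, adjusted p = 2.7e-07) and GSTU24 5.6, 3.24 and 2.69 CPM (-2.27, SE 0.31, adjusted p = 5.02e-05), all below every -P library. These genes too were named with their changes known. GSTU12 was lower than on mock as well (-3.01, SE 0.38, adjusted p = 3.98e-05). In N9416, 6 of 25 tested tau members rose and 10 fell, and 1 of 11 tested phi members rose and 8 fell against -P (30.2%, 15.2% higher and 15.1% lower). GSTF9 fell there from 1150.3, 1078 and 969 CPM to 304, 342 and 355 CPM (-1.64, SE 0.13, adjusted p = 5.81e-08), and GSTU6 (-2.57, SE 0.39) and GSTU4 (-2.56, SE 0.50) fell while GSTU2 rose (1.98, SE 0.35). Against mock 5 of 36 fell in N9416 (14.4%, 8.1% higher and 6.28% lower), GSTF7 most, from 225, 282 and 228 CPM to 58.7, 50.5 and 51.1 CPM (-2.17, SE 0.12, adjusted p = 2.56e-08). In N8507 GSTU9 rose against -P (1.15, SE 0.30, adjusted p = 0.0352; 4.49%, 2.11% higher and 2.38% lower, of all genes) and GSTU5 against mock (1.98, SE 0.51, adjusted p = 0.0476; 3.05%, 1.94% higher and 1.11% lower), the single member called in each. The counts were 3 with DESeq2 (2 higher, 1 lower), 2 with length-scaled counts (2 higher, 0 lower), 4 with 1 fit of all 66 libraries (2 higher, 2 lower) and 6 without the 3 libraries of low effective length (2 higher, 4 lower) against -P, and 2 with DESeq2 (2 higher, 0 lower), 0 with RLE size factors, 2 with length-scaled counts (2 higher, 0 lower), 5 with 1 fit of all 66 libraries (4 higher, 1 lower) and 4 without the 3 libraries of low effective length (2 higher, 2 lower) against mock. GSTU9 was not called without -P replicates 1 or 2 or nanoP replicates 1 or 3 (adjusted p from 0.0567 to 0.182), and GSTU5 was not called without mock replicates 1 or 2 or nanoP replicates 2 or 3 (adjusted p from 0.0566 to 0.185). GSTU20, GSTF2, GSTF7, GSTF9, GSTF10 and GSTF11 fell against -P in 3 genotypes and GSTU9 rose in 3, and the share of all genes called as often was not counted.

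On the control medium the members called between each line and Col-0 were counted beside the share of all genes. In N8507, 6 tau members were higher and 16 lower of 28, and 3 phi members higher and 4 lower of 11 (36.1%, 18.1% higher and 18% lower, of all genes). In N8508 the counts were 4 and 11 for tau and 2 and 1 for phi (27.2%, 14.8% higher and 12.4% lower), and in N9416 5 and 10 for tau and 2 and 2 for phi (31.8%, 15.8% higher and 16% lower). The phi counts of N8508 and N9416 were near the share of all genes. GSTU4 was lower in each line, at 0.192, 0.132 and 0.844 CPM in N8507 (-5.75, SE 0.60, adjusted p = 3.94e-11), 5.13, 3.41 and 1.81 CPM in N8508 (-2.60, SE 0.46, adjusted p = 1.23e-05) and 3.53, 1.45 and 1.2 CPM in N9416 (-3.32, SE 0.49, adjusted p = 3.87e-07), against 18.4, 22 and 21.5 CPM in Col-0. GSTU21 was higher in each, with 0.744, 0.812 and 1.26 CPM in Col-0 and 23.3, 21.1 and 14.3 CPM in N9416 (4.36, SE 0.36, adjusted p = 3.81e-14). GSTU22 and GSTU7 were lower in all 3 lines and GSTU2 higher, with the Col-0 libraries shared by the 3 comparisons. GSTU22 was not called without Col-0 mock replicates 1, 2 or 3 or N9416 mock replicates 1 or 3 (adjusted p from 0.0518 to 0.208). GSTF14 was higher in N9416, at 906, 986 and 705 CPM (1.82, SE 0.23, adjusted p = 1.19e-08), and N8508 (0.87, SE 0.23, adjusted p = 0.00225) than in Col-0, at 226, 241 and 266 CPM, and GSTF3 was lower in N8507 (-4.11, SE 0.67, adjusted p = 2.24e-06). Hypoxia markers on mock summed to 5908 to 12003 CPM in N8507, 5253 to 6804 CPM in N8508 and 1345 to 3239 CPM in Col-0.

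The members not yet described are given here so that all 41 are accounted for. GSTU10 rose with thorium on -P in Col-0 (1.5, SE 0.27, adjusted p = 0.00115) and N8507 (3.22, SE 0.27, adjusted p = 3.08e-07) and fell with nanoP+Th in N9416 (-1.12, SE 0.19, adjusted p = 0.000425). GSTU28 (AT1G53680) fell with thorium on -P in N8507, from 82.0, 47.1 and 68.0 CPM to 12.5, 12.3 and 22 CPM (-2.05, SE 0.38, adjusted p = 0.000617), and in N8508 (-1.83, SE 0.39, adjusted p = 0.00131). GSTU9 fell on -P in N9416 (-1.17, SE 0.17, adjusted p = 3.95e-05) and with thorium on -P in N8508 (-1.24, SE 0.20, adjusted p = 0.000139). GSTU27, among the abundant tau genes, was called in N9416 alone, on -P (-0.40, SE 0.11, adjusted p = 0.0078), with nanoP against -P (0.35, SE 0.11, adjusted p = 0.0205) and on mock+Th (-0.48, SE 0.11, adjusted p = 0.00119). GSTU18 (AT1G10360) was tested in all 22 pairwise comparisons within a genotype and called in none. GSTU17, a drought-responsive gene also named ERD9, fell with mock+Th in N8507 (-2.13, SE 0.59, adjusted p = 0.0252) and rose on -P in N9416. The fits of these GSTU17 calls with single libraries left out are not given here. GSTF4 fell with thorium on -P in N8507 (-0.83, SE 0.26, adjusted p = 0.0214) and N8508 (-0.77, SE 0.14, adjusted p = 0.000387) and rose with nanoP+Th in N8508 (1.04, SE 0.14, adjusted p = 0.000263). GSTF8 rose on -P in N9416 (0.70, SE 0.13, adjusted p = 0.000389) and was called in no Col-0 comparison. GSTU15, GSTF5 and GSTF12 had too few reads for a test within any genotype. GSTU16 (AT1G59700) was tested in N8507 alone and not called there, and GSTU3 was not tested in N9416.

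Neighbouring members did not always move together. In the cluster GSTU1 to GSTU7 all 7 members rose with thorium on -P in Col-0, N8507 and N8508, and in N9416 GSTU2 rose and GSTU5 fell of 6 tested. Within GSTU19 to GSTU23 on -P in Col-0, GSTU20 rose and GSTU22 fell, and with thorium on -P GSTU19, GSTU20 and GSTU22 rose in Col-0 while GSTU21 fell. GSTU24 and GSTU25 rose with thorium on -P in every genotype, and GSTU26 beside them rose in N8508 and N9416.

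**Figure D5:**
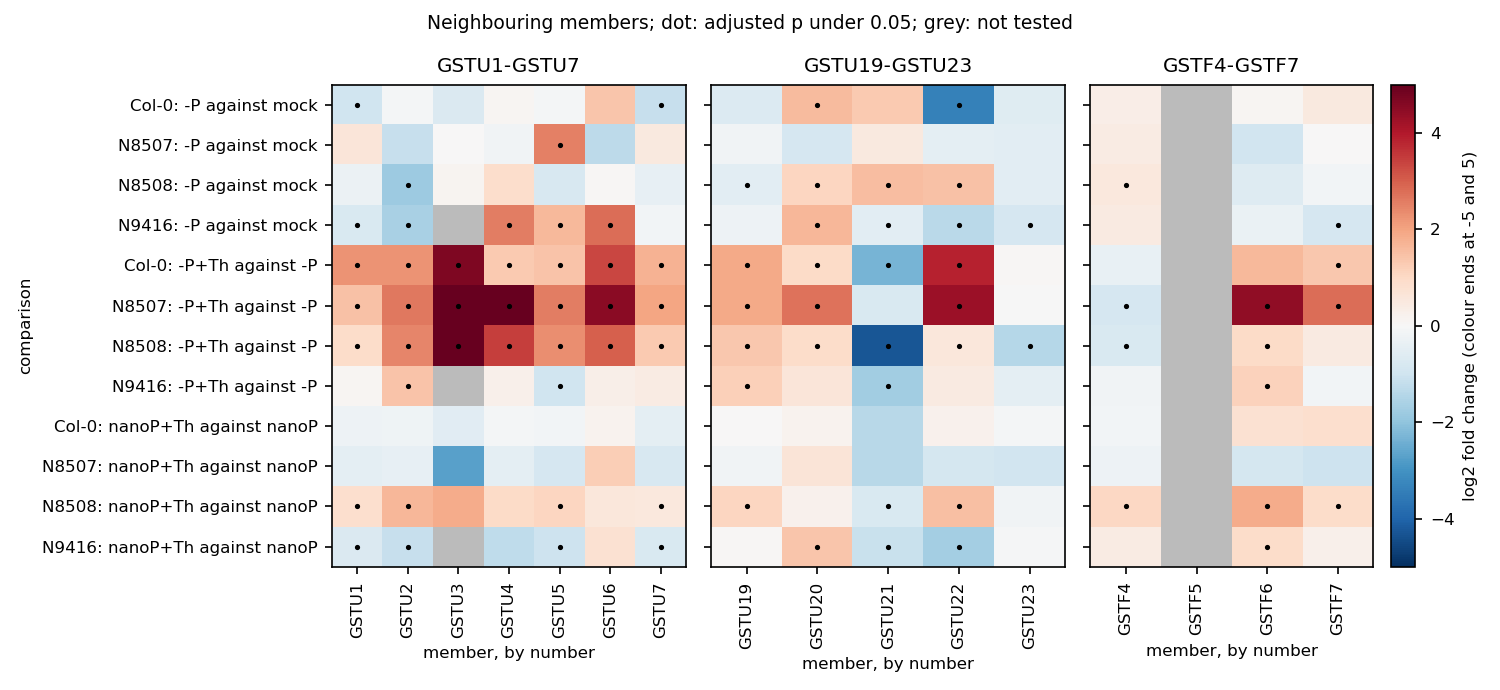
Log2 fold changes of the members of 3 clusters (columns) in 12 comparisons (rows) of -P with mock, -P+Th with -P and nanoP+Th with nanoP, with a dot where the adjusted p was under 0.05 and grey where a member was not tested. Red fills the GSTU1 to GSTU7 columns for -P+Th in Col-0, N8507 and N8508, whereas GSTU21 is blue beside red neighbours.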

How the data were processed

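RNA-seq of Arabidopsis roots was analysed in 66 libraries, grouped by the genotype and treatment in the labels. Per the labels' protocols, a Spectrum Plant kit was used for total RNA and a directional NEBNext Ultra II kit for the libraries. Trimmomatic, Salmon 1.3.0 and TAIR10 are named in the submitters' processing notes. How Salmon treated strand and bias is not given in the sources used here, so overlapping antisense genes could not be told apart. The deposited tables hold estimated counts per transcript model, not normalized by the authors, and deposited TPM, which the authors' Salmon run scaled by effective length. Of the 32875 models, 99.99% had a length divisible by 3, so coding sequences were counted.

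Estimated counts were summed per gene (27313 genes) and rounded. Differences were tested in edgeR 4.0.16 (R 4.3.3; TMM, filterByExpr by group, quasi-likelihood F-test, two-sided, Benjamini-Hochberg over all genes tested), in a fit per genotype or, across genotypes, a fit of all 66 libraries. Col-0 (common dispersion 0.0547) and N8507 (0.0769) spread more between libraries than N8508 (0.0214) and N9416 (0.018), where smaller effects can pass. The SE is the absolute log2 fold change divided by the square root of F. Assigned reads per library, 9396787 to 16756417, set the precision for members with few reads. The test was tried on counts simulated for Col-0 and N8508 alone, with a single spread for all genes and changes only in genes with many reads. N8507, N9416 and members with few reads were not covered by it. DESeq2 1.42.0, RLE factors, no filter, length-scaled counts, another set of libraries in the fit, leaving out each library, and leaving out 3 libraries of low effective length were tried.

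The members, gene lists and comparisons were chosen with earlier results of these data known. Named were, per comparison, up to 5 tau and 3 phi members with the largest log2 fold changes among those called, members of a cluster called in opposite directions, and GSTF2, GSTF6, GSTF8, GSTF12, GSTU19, GSTU20, GSTU24 and GSTU25 in Col-0; members outside this rule were named after their values were seen. Upstream windows and coding sequences came from the RefSeq TAIR10.1 genome and annotation, whose coding length equalled that in the tables for 40 of 41 members; the count tables give no coordinates. A planned protein comparison was replaced by coding-sequence identity (Biopython 1.88).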

Additional observations from a re-analysis of the deposited data

Results flagged for a closer look

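Differences between 2 effects of the same contrast passed edgeR's test of the difference itself in each set of comparisons. Thorium effects with nanoP and on -P differed for 9 members in Col-0 (7.72% of all genes), 24 members in N8507 (24.0% of all genes), 17 members in N8508 (28.8% of all genes) and 15 members in N9416 (20.4% of all genes). The response to -P differed from that of Col-0 for 9 members in N8507 (5.54% of all genes), 5 members in N8508 (6.45% of all genes) and 6 members in N9416 (7.15% of all genes), and the thorium effect on -P for 13 members in N8507 (20.4% of all genes), 9 members in N8508 (14.8% of all genes) and 15 members in N9416 (18.8% of all genes). Tests of the 3 lines against Col-0 share the Col-0 libraries. Below are the named members, as the log2 difference of the 2 effects, with 3 libraries in each of the 4 groups. The difference is negative where the first effect was the lower.

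In Col-0 the thorium effect with nanoP minus that on -P was called for GSTU8 (-3.96), GSTU22 (-3.64), GSTU24 (-3.54), GSTU1 (-2.47), GSTU2 (-2.47), GSTF2 (-1.37), GSTF14 (1.15) and GSTU19 (-1.86). In N8507 the thorium effect with nanoP minus that on -P was called for GSTU3 (-12.48), GSTU4 (-8.95), GSTU11 (-8.21), GSTU24 (-6.19), GSTU22 (-5.16), GSTF6 (-5.28), GSTF14 (4.43), GSTF7 (-3.84), GSTU25 (-4.85) and GSTU26 (2.03). In N8508 the thorium effect with nanoP minus that on -P was called for GSTU11 (-4.06), GSTU21 (3.48), GSTU4 (-2.52), GSTU6 (-2.42), GSTU28 (2.05), GSTF14 (2.30), GSTF4 (1.81) and GSTF2 (-0.59). In N9416 the thorium effect with nanoP minus that on -P was called for GSTU11 (-3.80), GSTU25 (-3.39), GSTU2 (-2.60), GSTU24 (-2.48), GSTU22 (-2.13), GSTF14 (1.95), GSTF11 (1.14) and GSTF9 (1.05). The value of GSTU3 in N8507 is a fitted one for a gene without reads in some groups and depends on the prior count.

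The response to -P in N8507 minus that in Col-0 was called for GSTU8 (3.96), GSTU22 (2.92), GSTU5 (2.65), GSTU20 (-2.40), GSTU7 (1.66), GSTF3 (3.37) and GSTF11 (-2.35). The response to -P in N8508 minus that in Col-0 was called for GSTU22 (4.81), GSTU8 (3.49), GSTU9 (1.18), GSTU10 (1.07) and GSTF14 (-1.21). The response to -P in N9416 minus that in Col-0 was called for GSTU8 (3.85), GSTU4 (2.46), GSTU22 (2.01), GSTU21 (-1.84), GSTU5 (1.74) and GSTF14 (-1.57). Set against Col-0, the thorium effect on -P in N8507 differed for GSTU4 (7.10), GSTU11 (5.94), GSTU3 (4.91), GSTU12 (3.82), GSTU28 (-1.97), GSTF6 (2.78), GSTF14 (-1.96) and GSTF7 (1.44). Set against Col-0, the thorium effect on -P in N8508 differed for GSTU8 (-4.04), GSTU22 (-3.32), GSTU4 (2.11), GSTU21 (-1.95), GSTU23 (-1.52), GSTF14 (-1.28) and GSTU1 (-1.37). Set against Col-0, the thorium effect on -P in N9416 differed for GSTU15 (-5.97), GSTU8 (-4.44), GSTU3 (-3.85), GSTU22 (-3.47), GSTU6 (-3.13), GSTF2 (-2.15), GSTF7 (-1.53), GSTF9 (-0.92), GSTU13 (-1.70) and GSTU14 (1.69). No read was counted for GSTU3 in N8507 -P or for GSTU15 in Col-0 -P, so the values of GSTU3 in N8507 and GSTU15 in N9416 against Col-0 are fitted values that depend on the prior count, not measured differences. GSTU3 in N9416 against Col-0 rests on groups with few reads.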

How the results depend on the processing

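With DESeq2 the counts of called members that moved by over 1.5 times were 4 (Col-0 nanoP against mock, 1 before), 1 (Col-0 nanoP+Th against nanoP, 0 before), 14 (Col-0 thorium effect with nanoP minus that on -P, 9 before), 3 (N8507 nanoP against -P, 1 before), 2 (N8507 nanoP against mock, 1 before), 5 (N8507 nanoP+Th against nanoP, 2 before). With 1 fit of all 66 libraries the counts of called members that moved by over 1.5 times were 5 (Col-0 nanoP against mock, 1 before), 1 (Col-0 nanoP+Th against nanoP, 0 before), 4 (N8507 nanoP against -P, 1 before), 5 (N8507 nanoP against mock, 1 before), 9 (N8507 nanoP+Th against nanoP, 2 before), 5 (N8508 -P against mock, 14 before), 10 (N8508 nanoP+Th against nanoP, 16 before), 9 (N8508 thorium effect with nanoP minus that on -P, 17 before), 7 (N9416 nanoP+Th against nanoP, 15 before), 8 (N9416 thorium effect with nanoP minus that on -P, 15 before). With the 3 libraries of low effective length left out the counts of called members that moved by over 1.5 times were 5 (Col-0 nanoP against mock, 1 before), 1 (Col-0 nanoP+Th against nanoP, 0 before), 5 (N8507 -P against mock, 2 before), 6 (N8507 nanoP against -P, 1 before), 4 (N8507 nanoP against mock, 1 before), 9 (N8507 nanoP+Th against nanoP, 2 before), 14 (N8507 minus Col-0 response to -P, 9 before), 11 (N9416 minus Col-0 response to -P, 6 before). With length-scaled counts the counts of called members that moved by over 1.5 times were 2 (N8507 nanoP against -P, 1 before), 2 (N8507 nanoP against mock, 1 before). With RLE size factors the counts of called members that moved by over 1.5 times were 0 (N8507 nanoP against mock, 1 before). With 1 library left out, the counts ran from 5 to 10 in Col-0 -P against mock (past 1.5 times without -P replicate 2 or mock replicates 1, 2 or 3), from 6 to 12 in Col-0 nanoP against -P (past 1.5 times without nanoP replicate 3), from 0 to 0 in Col-0 nanoP against mock (past 1.5 times without mock replicates 1, 2 or 3 or nanoP replicates 1, 2 or 3), from 0 to 4 in N8507 -P against mock (past 1.5 times without -P replicate 3 or mock replicates 1 or 3), from 0 to 2 in N8507 nanoP against -P (past 1.5 times without -P replicate 2 or nanoP replicates 1 or 3), from 0 to 2 in N8507 nanoP against mock (past 1.5 times without mock replicates 1, 2 or 3 or nanoP replicate 2), from 0 to 3 in N8507 nanoP+Th against nanoP (past 1.5 times without nanoP+Th replicates 1, 2 or 3), from 6 to 12 in N8507 mock+Th against mock (past 1.5 times without mock replicate 1), from 7 to 16 in N8508 -P against mock (past 1.5 times without -P replicate 3 or mock replicates 1 or 2), from 11 to 17 in N8508 thorium effect with nanoP minus that on -P (past 1.5 times without -P+Th replicate 3 or nanoP replicate 2), from 3 to 5 in N8508 minus Col-0 response to -P (past 1.5 times without Col-0 -P replicate 3, Col-0 mock replicate 3, N8508 -P replicate 3 or N8508 mock replicate 2), from 4 to 13 in N8508 minus Col-0 thorium effect on -P (past 1.5 times without Col-0 -P+Th replicate 1). Of the fold changes of named members under the other settings, 1704 of 1763 kept their direction and side of the threshold, 48 lost and 11 gained the call, and with 1 library left out 2123 of 2382 kept it, 255 lost and 4 gained it; 0 called values changed sign. The comparisons not listed moved by at most 1.5 times with any 1 library left out. The cause of these moves was not tested. In fits of all 66 libraries with 1 left out, the trended dispersion and the genes tested were held from the full fit. No paired analysis was possible because the labels give library numbers and no replicate numbers that are shared between groups. Members with few reads (GSTU3, GSTU15, GSTU16, GSTF5, GSTF12) are limited by depth.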

Other observations

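Over the 10 comparisons with and without thorium, GSTU11, GSTU12, GSTU25 and GSTF6 rose in 6 and fell in none, and GSTU21 rose in 1 and fell in 6. Over the 12 comparisons of media without thorium, GSTF7 rose in none and fell in 6. Comparisons within a genotype share libraries, so these counts are not independent. The share of all genes called as often was not counted.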
